A study of Homo sapiens with 2 samples.

Results

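The 47 genes of human chromosome 18 described here are those with a position on that chromosome in a deposited table of 1806 genes, which the authors listed as different between a pair of ovarian cancer lines. Because the table holds called genes alone, the authors' comparison chose the members, and the direction and size of their differences are given as a description with no test. The BRCA1-deficient group is UWB1.289, whose genotype label is BRCA1 Knockout, an established serous ovarian carcinoma line that lacks functional BRCA1. The BRCA1-expressing group is titled UWBBRCA, has the cell line label UWABRCA1 and the genotype label WT, and is a derivative of the same tumour line that carries BRCA1. Each line has 1 labelled sample of untreated tumour cells, sequenced as total RNA after removal of ribosomal RNA, in strand-specific libraries. Values are mean FPKM per line, that is fragment counts adjusted for transcript length and sequencing depth, given by the authors with no spread, so no SD or n stands beside them. Library totals were not used here and the depth is unknown. In bulk RNA, fewer cells that express a gene and less RNA per cell cannot be told apart.

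Chromosome 18 has few genes for its size. Its long arm carries SMAD2 and SMAD4, which relay signals of the TGF-beta family to the nucleus, the clusters of desmosomal cadherins and clade B serpins, and regulators of cell death such as PMAIP1 and MALT1. All 47 gene IDs were found on chromosome 18 in GENCODE release 29 (GRCh38), as protein-coding genes at overlapping coordinates, so the label matches the annotation. BRCA1 itself, on chromosome 17, had 5.63 FPKM in the BRCA1-deficient line and 22.03 FPKM in the BRCA1-expressing line. Of the markers of serous and Mullerian epithelium, 7 of 16 had a row (3 higher and 4 lower), and none of 10 leukocyte markers did. Of 10 endothelial markers 3 had a row, all higher, with summed levels of 42.5 FPKM in the BRCA1-deficient line and 12.0 FPKM in the BRCA1-expressing line. Of 10 fibroblast markers 4 had a row, 1 higher and 3 lower, with sums of 11.1 against 100.1 FPKM. Of 10 neuronal markers 7 had a row, 3 higher and 4 lower, with sums of 53.2 against 45.6 FPKM. For comparison, 9.03% of all protein-coding genes had a row. No marker of these lists lies on chromosome 18, and the part of other cell types in the differences of its genes was not tested.

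Nearly all of the listed chromosome 18 genes were lower in the BRCA1-deficient line. Going by the direction of the log2 fold change in the authors' deposited table, 45 of 47 were lower (95.7%) and 2 were higher, where 46.5% of all listed genes were lower. On the scale of log2(FPKM + 1), 26 members were at least 2-fold lower, where 22.5% of all listed genes were, and 0 were at least 2-fold higher, against 25.3% of all. The median difference over the members was -1.04, with quartiles of -1.25 and -0.51, and the median over all listed genes was 0.20. Each of the 34 members reaching 1 FPKM in at least 1 line was lower, where 44.8% of all listed genes at that level were. The remaining 13 members were under 1 FPKM in both lines, and both higher genes are among them. Summed over the members, 169 FPKM in the BRCA1-deficient line stood against 434 FPKM in the BRCA1-expressing line. In the authors' deposited table the adjusted p-values of the members ran from 1.64e-32 for ALPK2 to 0.0452 for SMAD4, the member nearest to the limit of 0.05, followed by TMX3 at 0.0413. Genes beyond that limit were not analysed here, so which chromosome 18 genes kept their level cannot be read from these values.

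**Figure D1:**
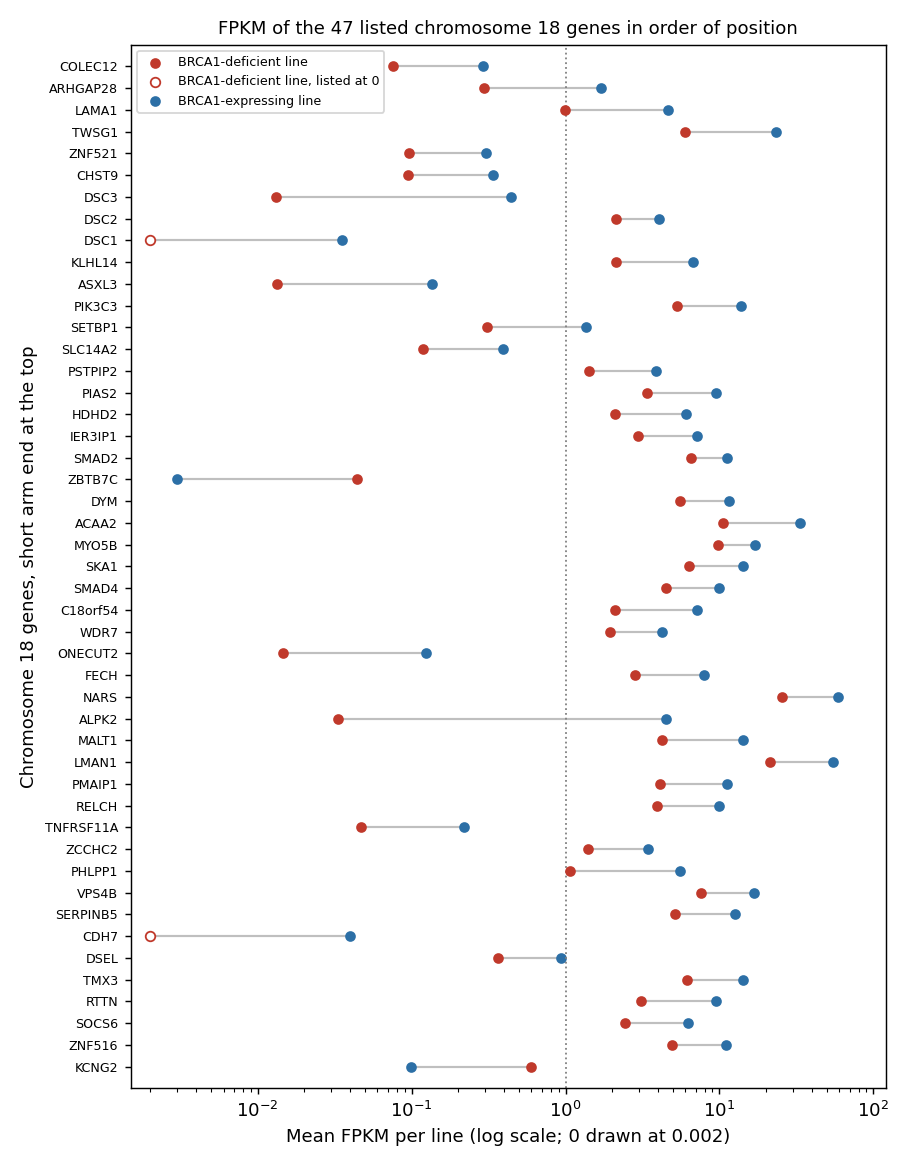
Mean FPKM of each of the 47 listed genes in the BRCA1-deficient line (red) and the BRCA1-expressing line (blue) on a log axis, in order of position from the end of the short arm at the top; open symbols mark the 2 genes listed at 0, and the dotted line is 1 FPKM. Red lies left of blue for all genes but ZBTB7C and KCNG2, both under 1 FPKM in both lines.

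Promoter sequences are shown for 4 of the lower genes on which the description below turns. ALPK2 has the largest log2(FPKM + 1) difference of the members, MALT1 is its neighbour with a smaller one, and SMAD4 and TWSG1 belong to the TGF-beta and BMP pathway. The sequences are from RefSeq (GRCh38.p14), run from 250 bases before to 50 bases after an annotated start, and are written 5′ to 3′ on the gene's strand. Capitals mark the GC box GGGCGG or its reverse complement CCGCCC, letters that hold a CpG and are therefore more frequent in CpG-rich sequence. The windows are chr18:58629042-58629341 (minus strand) for ALPK2, chr18:58671215-58671514 (plus) for MALT1, chr18:51029963-51030262 (plus) for SMAD4 and chr18:9334523-9334822 (plus) for TWSG1.
ALPK2: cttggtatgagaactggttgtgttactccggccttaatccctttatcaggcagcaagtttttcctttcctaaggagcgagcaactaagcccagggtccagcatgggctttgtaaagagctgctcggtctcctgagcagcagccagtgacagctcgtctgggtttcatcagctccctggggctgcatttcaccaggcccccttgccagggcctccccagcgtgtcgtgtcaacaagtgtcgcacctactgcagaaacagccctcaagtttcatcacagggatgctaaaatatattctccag
MALT1: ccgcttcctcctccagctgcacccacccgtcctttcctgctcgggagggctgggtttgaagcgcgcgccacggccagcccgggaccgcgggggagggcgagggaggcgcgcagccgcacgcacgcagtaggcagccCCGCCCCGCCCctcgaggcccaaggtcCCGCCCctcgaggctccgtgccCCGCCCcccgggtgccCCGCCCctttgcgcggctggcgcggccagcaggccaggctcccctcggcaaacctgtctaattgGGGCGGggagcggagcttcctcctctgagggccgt
SMAD4: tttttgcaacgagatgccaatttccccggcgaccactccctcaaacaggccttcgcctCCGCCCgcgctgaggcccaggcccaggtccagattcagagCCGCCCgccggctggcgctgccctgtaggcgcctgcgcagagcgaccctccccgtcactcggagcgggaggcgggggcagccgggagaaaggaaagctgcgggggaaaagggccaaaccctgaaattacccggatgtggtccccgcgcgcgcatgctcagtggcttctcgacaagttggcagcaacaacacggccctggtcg
TWSG1: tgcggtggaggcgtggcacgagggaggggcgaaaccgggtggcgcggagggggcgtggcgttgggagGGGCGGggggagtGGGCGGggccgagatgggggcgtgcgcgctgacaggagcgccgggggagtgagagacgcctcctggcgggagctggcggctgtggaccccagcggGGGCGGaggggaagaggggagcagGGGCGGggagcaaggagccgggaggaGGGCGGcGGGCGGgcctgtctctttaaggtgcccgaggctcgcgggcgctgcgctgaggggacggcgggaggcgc
The ALPK2 window held 7 CpG and 0 GC boxes, that of MALT1 33 CpG and 6 GC boxes, SMAD4 28 and 2, and TWSG1 35 and 6. Of the 47 members 42 were matched to a RefSeq promoter, taking the start nearest to the annotated gene start. The nearest start was not always close. The ARHGAP28 window begins at 6834235 and the gene at 6729718, and the KCNG2 window at 79797688 and the gene at 79863668. The SMAD4 window begins at 51029963 and the gene at 51028394. Such windows are counted here as they are. The 42 promoters had a median GC content of 66.7% and a median number of CpG of 28.5. Over all 34943 promoters of this length the medians were 58.7% and 14. A GC box was held by 31 of the 42, against 44.9% of all promoters. Over the 720 promoters of chromosome 18 the medians were 52.3% and 8, and 38.3% held a GC box. The members have 1 promoter each, whereas chromosome 18 has 720 promoters for 269 protein-coding genes. The sets are therefore not matched, and the difference was not tested. Among members reaching 1 FPKM in either line 25 of 30 held a GC box, and among those under 1 FPKM 6 of 12. A match of these letters says nothing of which factor binds there.

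SMAD2, SMAD4 and TWSG1, genes of TGF-beta and BMP signalling, were lower in the BRCA1-deficient line. SMAD2 (ENSG00000175387, chromosome 18, 47808957 to 47931146, minus strand), a receptor-activated SMAD, had 6.54 FPKM in the BRCA1-deficient line and 11.1 FPKM in the BRCA1-expressing line. By the ratio of FPKM, 0.587, this was the smallest reduction among lower members reaching 1 FPKM in both lines, which does not hold for the authors' fold. SMAD4 (ENSG00000141646, 51028394 to 51085045, plus strand), the common partner of activated SMADs and a tumour suppressor, had 4.50 against 9.93 FPKM. It overlaps another annotated protein-coding gene, AC091551.1, on its strand, and reads of the overlap could be assigned to either. TWSG1 (ENSG00000128791, 9334767 to 9402420, plus strand), a secreted protein that binds BMP ligands, had 5.98 against 23.1 FPKM, and had the largest fold of the 3 by both measures. In the authors' deposited table the log2 fold changes were -1.16 for SMAD2, -1.01 for SMAD4 and -1.94 for TWSG1, with adjusted p of 0.0307, 0.0452 and 9.84e-06. In the list of 6 TGF-beta pathway genes of the chromosome, which does not hold TWSG1, SMAD2 and SMAD4 had a row, and the other 4 were not analysed here.

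In the list of cell death and survival signalling 5 of 6 genes had a row, all lower. For comparison, 9.03% of all protein-coding genes and 17.5% of those on chromosome 18 had a row, and 45 of 47 members were lower. The same shares stand beside the counts of the other lists. The lists were chosen with earlier results of these data known. PMAIP1 (ENSG00000141682), which encodes the BH3-only protein NOXA and promotes mitochondrial apoptosis, had 4.09 FPKM in the BRCA1-deficient line against 11.2 in the BRCA1-expressing line. MALT1 (ENSG00000172175), a paracaspase of the NF-kB pathway, had 4.21 against 14.3 FPKM. PHLPP1 (ENSG00000081913), a phosphatase that removes an activating phosphate from AKT, had 1.06 against 5.52 FPKM, a ratio of 0.193, which was the largest reduction by this measure among members reaching 1 FPKM in both lines. SERPINB5, the serpin known as maspin, had 5.17 against 12.7 FPKM, and was the single member of 10 clade B serpins of the chromosome with a row. TNFRSF11A, the receptor RANK, was under 1 FPKM in both lines, at 0.0469 against 0.218. In the authors' deposited table PHLPP1 had an adjusted p of 4.13e-07 and MALT1 of 1.57e-06. The products in this list have opposing known roles: NOXA promotes cell death and MALT1 signalling opposes it.

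ALPK2 (ENSG00000198796, chromosome 18, 58481049 to 58629091, minus strand), an alpha-kinase, had the largest log2(FPKM + 1) difference of the members. It had 0.0334 FPKM in the BRCA1-deficient line and 4.47 FPKM in the BRCA1-expressing line, a log2(FPKM + 1) difference of -2.40. The FPKM ratio is 134-fold, and the authors' deposited table gave a smaller log2 fold change of -6.19. ALPK2 was the only member at least 4-fold lower on the log2(FPKM + 1) scale. Its neighbour MALT1, 42.4 kb away on the other strand, was 3.39-fold lower by the ratio of FPKM. ARHGAP28 had 0.294 FPKM in the BRCA1-deficient line against 1.71 FPKM in the BRCA1-expressing line. Together with ALPK2, LAMA1 and SETBP1 it makes up the 4 members that reached 1 FPKM in the BRCA1-expressing line and not in the BRCA1-deficient line.

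Adhesion and matrix genes were lower at widely different levels. LAMA1 (ENSG00000101680), the alpha-1 chain of laminin in basement membranes, had 0.998 FPKM in the BRCA1-deficient line and 4.63 FPKM in the BRCA1-expressing line. The 3 desmocollin genes, cadherins of the desmosome, lie side by side on the minus strand of the long arm. DSC2 had 2.13 against 4.06 FPKM, while DSC3 had 0.0131 against 0.442, and DSC1 was listed at 0 against 0.0354 FPKM. By the ratio of FPKM, DSC2 stood at 0.526 and DSC3 at 0.0297 of the level in the BRCA1-expressing line. CDH7, a classical cadherin, was listed at 0 in the BRCA1-deficient line and at 0.0400 FPKM in the BRCA1-expressing line. Of 11 desmosomal and classical cadherins of the chromosome these 4 had a row. COLEC12, a scavenger receptor of the collectin family, had 0.0762 against 0.291 FPKM. CHST9, a carbohydrate sulfotransferase, had 0.0941 against 0.337 FPKM, and DSEL, related to the epimerase of dermatan sulfate, 0.361 against 0.933. CHST9 and DSEL are the 2 members named after their values were seen. Apart from LAMA1 and DSC2, all of these stayed under 1 FPKM in both lines, where a fold rests on little RNA.

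The members that act in the secretory and endosomal system were grouped by their known role after their values were seen, and only some are in a list. All 9 given here were lower, as were 45 of all 47 members. LMAN1 (ENSG00000074695), the cargo receptor that carries glycoproteins from the endoplasmic reticulum to the Golgi, had 21.2 FPKM in the BRCA1-deficient line and 54.4 FPKM in the BRCA1-expressing line. PIK3C3, the class III phosphatidylinositol 3-kinase of autophagy and endosomal sorting, had 5.29 against 13.7 FPKM, and VPS4B, the ATPase that recycles ESCRT complexes, 7.60 against 16.7. These genes were each reduced to between 0.385 and 0.455 of their level in the BRCA1-expressing line. MYO5B, a myosin motor of recycling endosomes, had 9.83 against 17.1 FPKM. RELCH, of the recycling endosome, had 3.91 against 9.92 FPKM, WDR7, which acts with the vacuolar proton pump, 1.96 against 4.21, and DYM, a Golgi protein, 5.57 against 11.5. IER3IP1, of the endoplasmic reticulum, had 2.97 against 7.16 FPKM, and TMX3, a disulfide isomerase of the same compartment, 6.14 against 14.1. Of 11 genes in the list of vesicle traffic 4 had a row (MYO5B, WDR7, LMAN1 and VPS4B), all lower. On the log2(FPKM + 1) scale 2 of them were at least 2-fold lower, as were 26 of all 47 members. Over all listed genes the share at least 2-fold lower was 22.5%.

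The members NARS, ACAA2, FECH and HDHD2 encode enzymes and were grouped after their values were seen. NARS (ENSG00000134440), the cytosolic asparaginyl-tRNA synthetase, was the most abundant member, with 25.4 FPKM in the BRCA1-deficient line and 58.7 FPKM in the BRCA1-expressing line. ACAA2 (ENSG00000167315), the mitochondrial thiolase of fatty acid beta-oxidation, had 10.5 against 33.4 FPKM. FECH, ferrochelatase, which inserts iron in the last step of haem synthesis, had 2.85 against 7.91 FPKM, and HDHD2, of the haloacid dehalogenase family, 2.08 against 6.03. In the authors' deposited table ACAA2 had a log2 fold change of -1.53 with an adjusted p of 0.000937. SKA1, a kinetochore protein of the mitotic spindle, had 6.36 against 14.2 FPKM, and was the single gene with a row of 12 in cell cycle, replication and repair. RTTN, a centriole protein, had 3.10 against 9.51 FPKM.

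Transcription regulators were lower with the exception of ZBTB7C. ZNF516, a zinc finger protein, had 4.88 FPKM in the BRCA1-deficient line and 11.1 FPKM in the BRCA1-expressing line, and SETBP1, which binds the SET oncoprotein, 0.310 against 1.35. ONECUT2, a homeobox factor, had 0.0147 against 0.125 FPKM, ASXL3, of the Polycomb-associated ASXL family, 0.0134 against 0.136, and ZNF521, a zinc finger protein, 0.0965 against 0.304. ZBTB7C, a BTB zinc finger protein, was higher at 0.0440 against 0.00300 FPKM. Counting both SMADs, 8 of 24 transcription factors of the chromosome had a row, 7 lower and 1 higher, with a median difference of -0.47. ZNF521, ASXL3, ONECUT2 and ZBTB7C were under 1 FPKM in both lines, where the log2(FPKM + 1) scale keeps a difference small. By the ratio of FPKM, ZNF521 stood at 0.317, ASXL3 at 0.0986 and ONECUT2 at 0.118 of the level in the BRCA1-expressing line. PIAS2, a SUMO ligase that acts on transcription factors, had 3.37 against 9.50 FPKM, and SOCS6, a suppressor of cytokine signalling, 2.44 against 6.27. These were the 2 genes with a row of 10 in the list of ubiquitin ligases and proteolysis.

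The other higher gene, KCNG2, a modifier subunit of voltage-gated potassium channels, had 0.593 FPKM in the BRCA1-deficient line and 0.0997 FPKM in the BRCA1-expressing line. It is the last member towards the end of the long arm. SLC14A2, a urea transporter, was lower at 0.119 against 0.391 FPKM. These 2 are the genes with a row among 11 ion channels and transporters. The 4 remaining members are KLHL14, of the Kelch family, at 2.12 against 6.72 FPKM, PSTPIP2, an F-BAR protein of the actin cortex, at 1.41 against 3.85, C18orf54 at 2.10 against 7.12, and ZCCHC2 at 1.39 against 3.41. All 4 were lower and reaching 1 FPKM in both lines.

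Lower genes lay on both arms. In order of position, the first 19 members were lower, ZBTB7C was higher, the next 26 were lower, and KCNG2 at the end was higher. The longest stretch without an annotated protein-coding gene, from 14852738 to 20946906, was used to divide the arms. All 4 members of the short arm were lower, with a median log2 difference of -1.28, and so were 41 of 43 on the long arm, with a median of -1.04. Of the members 20 of 21 on the plus strand and 25 of 26 on the minus strand were lower. Listed genes were dense in the middle of the long arm: between 40 and 70 Mb 32 of 106 protein-coding genes had a row (30.2%). Of these 31 were lower, as were 45 of all 47 members. This span joins the densest of the equal windows into which the chromosome was cut, so its share is high by choice. In each window outside it at most 14.8% had a row, where 9.03% of all protein-coding genes had one. The 15.7 Mb between TWSG1 and ZNF521 held 53 protein-coding genes with no row. There were 16 pairs of members with no other protein-coding gene starting between them apart from ones that overlap a member, and both genes were lower in 15 pairs. With 45 of 47 members lower, nearly all pairs would be so at any position. The count therefore cannot show whether neighbours differ together. Among close neighbours, FECH and NARS, 14.0 kb apart, had FPKM ratios of 0.360 and 0.432, and ACAA2 and MYO5B, 8.84 kb apart, had ratios of 0.315 and 0.574. In the authors' deposited table the log2 fold changes were -1.41 for FECH and -1.16 for NARS, and -1.53 for ACAA2 and -1.26 for MYO5B. Both pairs lie on the minus strand. ACAA2 and MYO5B each overlap the annotated protein-coding gene AC090227.1 on that strand, as HDHD2 and IER3IP1 overlap AC012254.2, so reads there can be shared.

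Set beside the other chromosomes, chromosome 18 had the highest share of lower genes of the 23 compared, 95.7%. Chromosome 6 followed with 75.9% (88 of 116) and chromosome X with 72.0% (54 of 75), and chromosome 22 had the lowest share, 11.4% (5 of 44). Chromosome 18 also had the highest share of protein-coding genes with a row, 17.5% (47 of 269), close to the 16.8% of chromosome 9 (130 of 776). Of all protein-coding genes 9.03% had one. Of the 47 listed genes of chromosome 18, 32 lay between 40 and 70 Mb. No test was made of these shares, since the members were chosen from the same comparison.

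**Figure D2:**
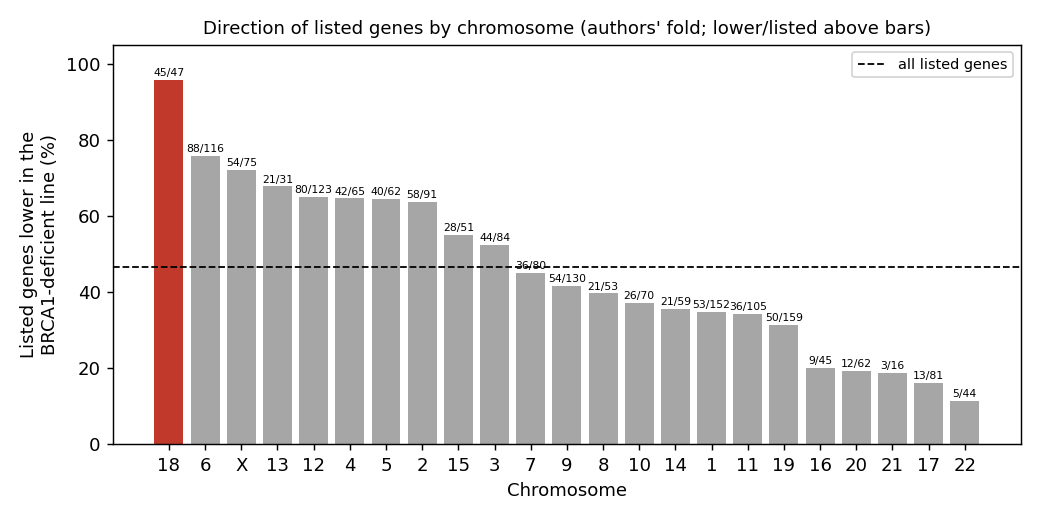
Share of listed genes that were lower in the BRCA1-deficient line, by the authors' fold, for each chromosome in descending order, with the numbers of lower and listed genes above the bars and the share over all listed genes (46.5%) as a dashed line. Chromosome 18 (red) stands at 95.7%, and the next, chromosome 6, at 75.9%.

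Among genes reaching 1 FPKM in both lines, the size of the reduction was close to that of lower genes elsewhere. For the 30 members reaching 1 FPKM in both lines, the FPKM in the BRCA1-deficient line had a median of 39.2% of that in the BRCA1-expressing line, and a ratio with quartiles of 0.348 and 0.446. The 365 lower genes of other chromosomes at that level had a median of 38.0%, with quartiles of 0.299 and 0.430. A ratio under 0.25 was found for 1 of the 30 members (PHLPP1) and for 49 of the 365 other genes. Asking for 1 FPKM in both lines leaves out strong reductions in both sets. Among the members it left out the 4 that reached 1 FPKM in the BRCA1-expressing line alone. Their ratios were all under 0.25, at 0.00748 for ALPK2, 0.172 for ARHGAP28, 0.216 for LAMA1 and 0.229 for SETBP1. Both sets hold called genes alone, which limits how small a reduction they can show; the highest ratio was 0.587 among the members and 0.752 among the other genes.

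**Figure D3:**
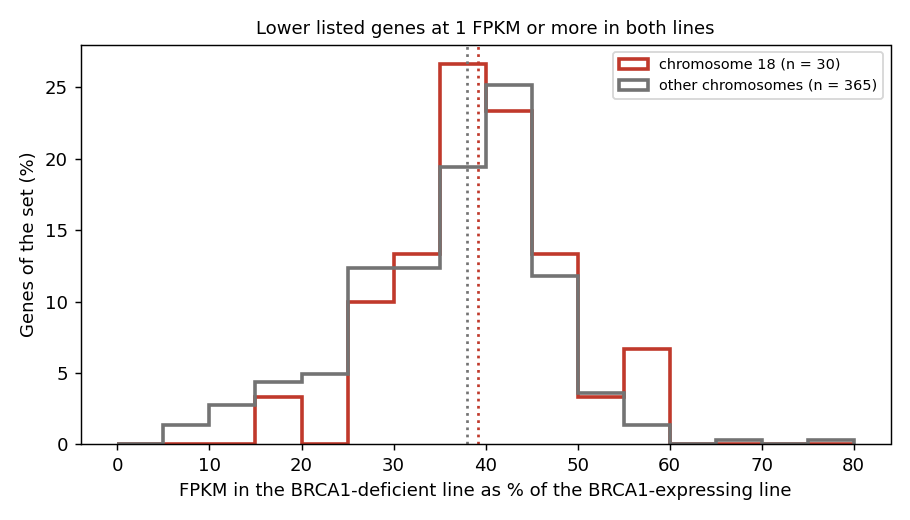
Distribution of the FPKM in the BRCA1-deficient line as a percentage of that in the BRCA1-expressing line, for lower listed genes reaching 1 FPKM in both lines, in 5-point bins as a share of each set: 30 genes on chromosome 18 (red) and 365 on other chromosomes (grey). The dotted medians, 39.2% and 38.0%, lie close together.

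Transcript GC content moved with the direction across the whole table, and the members are GC-poor. The longest annotated transcript of the members had a median GC content of 42.0%, against 51.7% for listed genes of other chromosomes, and a median length of 5848 against 3706 bases. By chromosome, the median GC content of the listed genes was lowest on chromosome 18 and highest on chromosome 22, at 60.0%. Chromosomes 6 and X, next after chromosome 18 in the share of lower genes, had 43.4% and 47.4%. The 2 orders were not the same throughout. Chromosome 3 had a median GC content of 47.4% with 52.4% of its listed genes lower, and chromosome 8 47.6% with 39.6%. When all listed genes were divided into 5 equal classes by GC content, the share of lower genes off chromosome 18 was 84.8% in the lowest class and 75.1% in the next, then 39.8%, 19.6% and 10.3% in the highest. All 38 members in the lowest 2 classes were lower, where the share off chromosome 18, weighted to the classes of these members, was 81.2%. Of the 9 members in the upper 3 classes 7 were lower (COLEC12, LAMA1, SLC14A2, TNFRSF11A, ZCCHC2, ZNF516 and PHLPP1), where the share off chromosome 18, weighted in the same way, was 34.3%. The higher genes, ZBTB7C at 54.3% GC and KCNG2 at 67.2%, are the other 2. Weighted to the classes of all members, the share of lower genes off chromosome 18 was 72.2%, against 95.7% for the members. The part of GC content in the direction of the members was not tested.

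**Figure D4:**
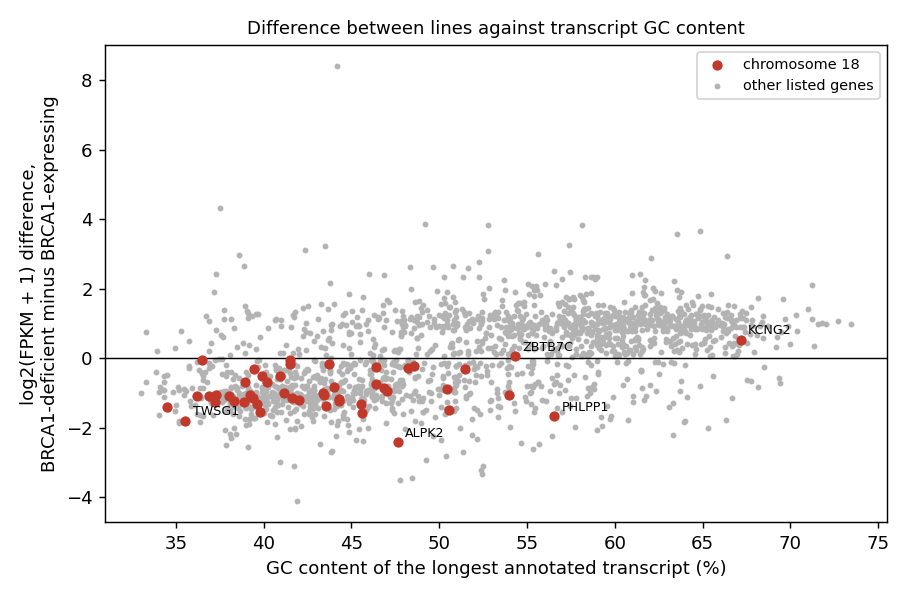
Difference in log2(FPKM + 1), BRCA1-deficient minus BRCA1-expressing, against the GC content of the longest annotated transcript, for chromosome 18 (red) and the other listed genes (grey). Most red points lie at low GC content and under 0, PHLPP1 lies under 0 at 56.6% GC, and KCNG2 lies above 0 at 67.2%.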

How the data were processed

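RNA of 2 labelled samples, 1 per line, was depleted of ribosomal RNA and made into strand-specific libraries, per the labels' protocols. The submitters' processing notes name HISAT2, StringTie 1.3.3b and the mouse build mm9, although the gene IDs are human and the coordinates match GRCh38. The FPKM values were deposited by the authors as a mean per line. All of them are, after multiplication by 3, whole multiples of their last decimal (tolerance 0.02), so each appears to be a mean of 3 values that were not analysed here. The log2 fold change, p-value and adjusted p-value are the authors' own, deposited in the same table, and no source used here names their test. Only genes under an adjusted p of 0.05 are listed.

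Differences were computed here as log2(FPKM + 1), BRCA1-deficient minus BRCA1-expressing, and counted by a 2-fold size rule. Means allow no test across samples. The members and gene lists were chosen with earlier results of these data known. Named were up to 30 members of largest difference that reached 1 FPKM in either line, list members, and the first and last member. Transcript GC content came from GENCODE release 29, and promoters from RefSeq GRCh38.p14. Of the 47 members 26 overlap another annotated gene on their strand. Some genes of the partner list are not reported here. The counting was tested on simulated data. Python 3.11.15 with numpy 2.4.6, pandas 2.3.3 and matplotlib 3.10.9 was used. Alternatives were other pseudocounts, scalings, minimum levels, thresholds and the authors' fold. Leaving out members that overlap another protein-coding gene on their strand was added after seeing the data.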

Additional observations from a re-analysis of the deposited data

How the results depend on the processing

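No paired analysis was possible because each line has 1 labelled sample and its values are means. No member differed in sign between the FPKM values and the authors' fold. A pseudocount cannot change a sign, and both scalings lower the BRCA1-deficient line, so the signs of the lower members were fixed under these; ZBTB7C and KCNG2 were higher under both scalings. The 0 members at least 2-fold higher became 1 with a pseudocount of 0.1, and 2 with a pseudocount of 0.01 or the authors' fold, and these are ZBTB7C and KCNG2. Of the 1806 listed genes, 840 were at least 2-fold higher with a pseudocount of 0.1, 896 with 0.01 and 964 by the authors' fold. The 26 members at least 2-fold lower became 42 with a pseudocount of 0.01, 45 by the authors' fold, 14 of 21 at an adjusted p under 0.01, and 1 under a 4-fold rule. Over all listed genes the 2-fold lower share was 45.0% with a pseudocount of 0.01, 46.0% by the authors' fold, 27.0% at an adjusted p under 0.01 and 2.33% under a 4-fold rule. Centring on the median FPKM ratio of the genes that reached 1 FPKM in both lines moved the median of all listed genes by -0.21 and that of the members to -1.73, and then 34 members were 2-fold lower, against 30.5% of all. Both scalings rest on called genes alone. Apart from the centring on the median ratio, the median of the members lay between -1.04 and -1.47, the latter with a pseudocount of 0.01. The 2-fold lower count was 39 of 47 with a pseudocount of 0.1, against 41.9% of all listed genes. With totals scaled to be equal it was 32 of 47, against 28.8%. Among genes reaching 1 FPKM in at least 1 line it was 26 of 34, against 31.1%, and in both lines 23 of 30, against 33.5%. Without members that overlap another protein-coding gene on their strand it was 23 of 42. Overlapping genes were not left out of all listed genes in the same way, so this count has no matched share. With none left out, 22.5% of all listed genes were at least 2-fold lower. The unknown depth limits what the 13 members under 1 FPKM show.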

Other observations

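Known partners and relatives of the members on other chromosomes, a list of 64 genes chosen after the data were seen, had 12 genes in the table, 7 higher and 5 lower in the BRCA1-deficient line. Of all protein-coding genes 9.03% had a row, and 53.5% of all listed genes were higher. SMAD3, a receptor-activated SMAD like SMAD2, was higher, at 40.6 FPKM in the BRCA1-deficient line against 17.1 FPKM in the BRCA1-expressing line, while SMAD2 and SMAD4 were lower. The BMP receptor gene BMPR1B was lower, at 0.0116 against 0.407 FPKM. The laminin chain LAMB1 was higher, at 134 against 71.7 FPKM, and LAMA1 was lower. TNFSF11, the ligand of the receptor encoded by TNFRSF11A, had 0.369 against 0.0818 FPKM, both under 1 FPKM. Among serpins of the same clade on chromosome 6, SERPINB1 had 19.8 against 11.2 FPKM and SERPINB9 0.0133 against 0.507. SOCS2, a relative of SOCS6, had 1.24 against 5.26 FPKM.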
